A study of Mus musculus with 2 samples.

Results

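Interferon response genes are transcripts that cells switch on when interferons, the antiviral and immune-activating cytokines, bind their receptors. A set of 38 such genes was followed here in mouse colon, each through the probe sets whose annotation carries its gene symbol and no other. The array was an Affymetrix design, on which groups of short oligonucleotides (probe sets) report on transcripts, and 33 of the 38 had such a probe set, out of 12393 genes with one. RNA came from a piece of distal colon and was measured on 1 array per genotype, each array holding RNA pooled from 4 mice. The wild-type mice were of the strain labelled FVB, and the other mice, labelled Tg5, carried interleukin-9 (IL-9) as a transgene. IL-9 is a cytokine best known for its action on mast cells. Both groups were kept free of specific pathogens, and the sources used here do not give the promoter that drives the transgene. A single array per genotype leaves the variation among mice and among arrays unknown, so nothing was tested and every difference below is one between these 2 pools.

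Interferons act through a short relay. Type I interferons (the interferon-α family and interferon-β) bind the receptor chains encoded by Ifnar1 and Ifnar2, and the kinases JAK1 and TYK2 then activate a complex that includes STAT2 and IRF9 and binds a DNA element called ISRE. Interferon-γ binds the chains encoded by Ifngr1 and Ifngr2, and signalling through JAK1 and JAK2 leads to binding at a different element, called GAS. Many target genes answer to both kinds of interferon, but the guanylate-binding proteins (Gbp) and immunity-related GTPases (Irg), which attack the vacuoles of intracellular pathogens, are classic strong targets of interferon-γ, while the Ifit, Oas, Mx and Isg genes are classic targets of type I interferon.

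Values are intensities made with MAS5, on a linear scale. An intensity under 19.8, the 40th percentile of all probe sets that are not controls over both arrays, was treated as not measurable and set to that floor. A ratio is given as log2 of transgenic over wild type, so that positive means higher in the transgenic pool, and a gene was called higher or lower at 2-fold, a log2 ratio of 1 in size. Each gene was represented by its probe set of highest mean intensity. Over the 8346 genes above the floor in at least 1 pool, the median log2 ratio was 0.04, and the middle 95% lay between −0.61 and 0.70. Probe sets of the same gene differed in log2 ratio with a pooled SD of 0.28, a technical yardstick that holds no spread between animals. Il9 itself had an intensity of 5.14 in the wild-type pool and 862 in the transgenic pool, so the pools matched their labels.

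The 6 GTPase genes of this set with their own probe set were higher in the transgenic pool, by 1.67-fold to 2.92-fold. Its measured Ifit, Oas and Isg genes stayed within 1.45-fold, and its Mx genes could not be read. Of the 33 genes, 30 exceeded the floor in at least 1 pool, and 5 of these were at least 2-fold higher: Gbp2, Gbp3, Ifi47, Iigp1 and the nucleic acid sensor gene Zbp1. Over all measured genes 0.767% were called higher. None of the 30 was at least 2-fold lower, against 0.611% of all measured genes. The ratio was positive for 26 of the 30, against 56% of all measured genes, and the median log2 ratio of the 30 was 0.35. In RNA from whole tissue, more cells of a type and more RNA per cell cannot be told apart. The plot of intensities by gene shows every one of the 33 in both pools.

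**Figure D1:**
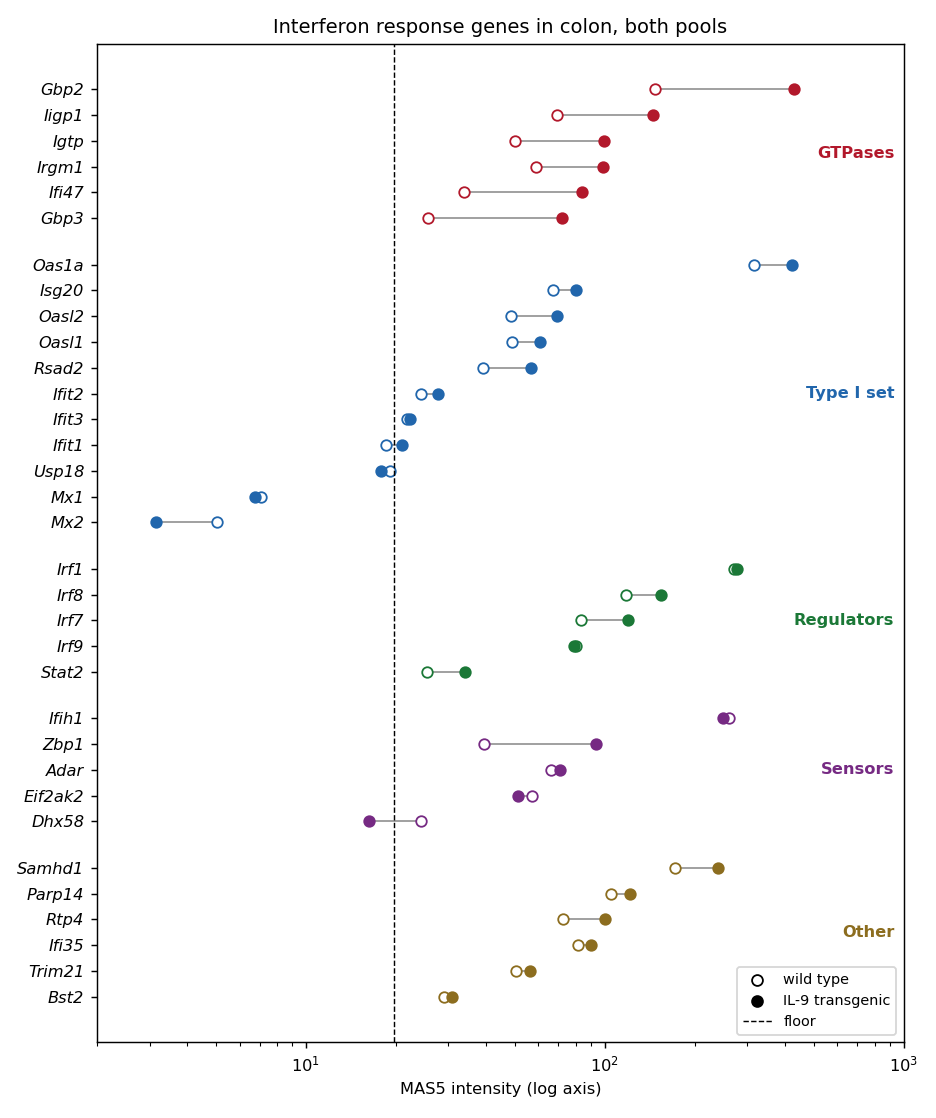
MAS5 intensity (log axis) of the 33 interferon response genes in the wild-type pool (open circles) and the transgenic pool (filled circles), 1 array each, grouped by role; the dashed line is the floor of 19.8. The distance between circles is widest in the GTPases and in Zbp1, and Mx1, Mx2 and Usp18 lie left of the floor in both pools.

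The Gbp genes encode large GTPases that coat and break pathogen vacuoles. Gbp2 had an intensity of 148 in the wild-type pool and 431 in the transgenic pool on its brighter probe set (1418240_at), which is 2.92-fold higher. Its second probe set (1435906_x_at) read 77.3 and 203, a log2 ratio of 1.39 beside 1.55 for the first. Both probe sets of Gbp2 therefore gave a difference of similar size, closer to each other than the yardstick SD. Gbp2 ranked 15 of 8346 genes by ratio, counted from the highest.

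Gbp3 was read by a single probe set (1418392_a_at), with 25.7 in wild type and 72.1 in the transgenic pool, 2.80-fold higher. Its wild-type value lay just above the floor. With the floor at the 60th percentile its wild-type value fell under the floor and its log2 ratio was at least 0.39, so its call depends on the floor. When probe sets able to bind several transcripts were left out, its only probe set was among them. That setting gave Gbp3 no value, and its call could not be checked there.

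The Irg genes fall into effectors, which bind vacuole membranes, and regulators of the Irgm kind, which keep the effectors off the cell's own membranes. Among the effectors, Iigp1 (also called Irga6) had 69.0 in wild type and 145 in the transgenic pool, 2.10-fold higher, on probe set 1419043_a_at. Its other probe set (1419042_at) went from 18.4, under the floor, to 43.7, a log2 ratio of at least 1.14 beside 1.07. The effector gene Ifi47 (also called Irgd) had 33.9 and 84.1, 2.48-fold higher, a call lost with the floor at the 60th percentile, which put its wild-type value under the floor and its log2 ratio at 0.61 or more. The effector gene Tgtp1 had no probe set of its own. The probe set annotated to Tgtp1 and Tgtp2 together read 62.3 in wild type and 126 in the transgenic pool, and its log2 ratio of 1.01 cannot be given to either gene and is in no count here.

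Both regulator genes stayed below 2-fold. Igtp (also called Irgm3) had 50.1 in wild type and 99.4 in the transgenic pool, a log2 ratio of 0.99 and thus just short of the threshold. Irgm1 had 59.0 and 98.5, a log2 ratio of 0.74, the lowest of the 6 GTPases. Even so, only 2.17% of all measured genes had a ratio at or above that of Irgm1. The remaining regulator of this kind, Irgm2, belonged to the list of further pathway genes and had 23.7 and 50.8, a log2 ratio of 1.10.

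As a group, all 6 GTPases with their own probe set exceeded the floor in both pools, and their median log2 ratio was 1.19, against 0.04 over all measured genes. All 6 lay above the upper end of the middle 95% of genes. Of the 6, 4 were called higher, and among the 4535 genes in the same range of mean intensity 0.684% were. The genes were listed with earlier results of these data known, so their count and median describe them and are not independent evidence of a direction.

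**Figure D2:**
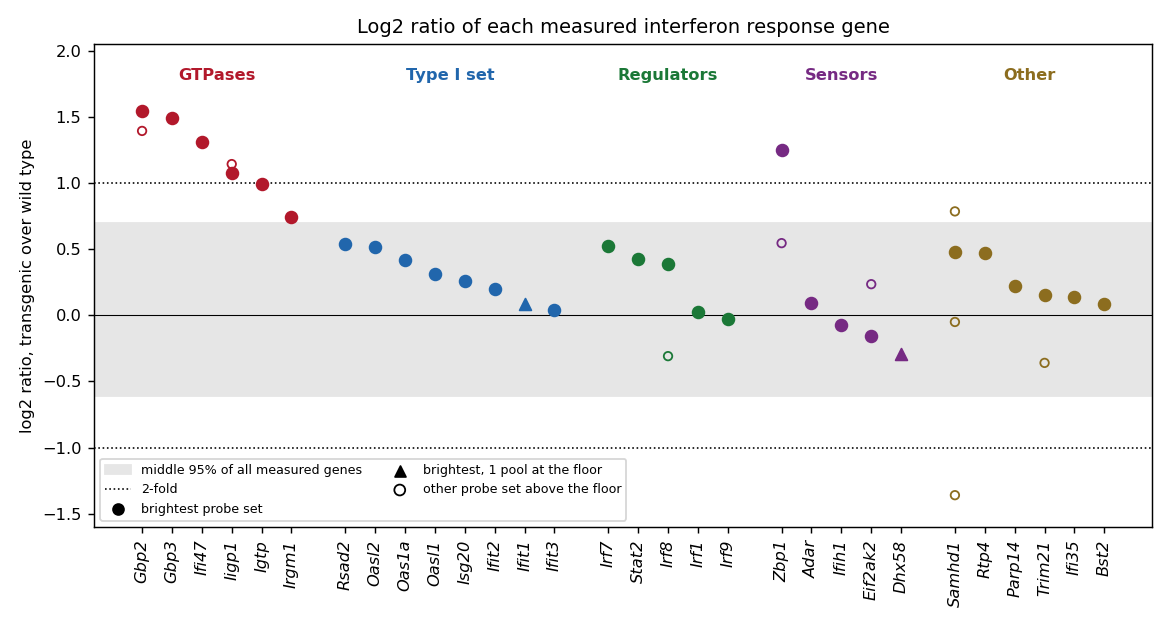
Log2 ratio of transgenic over wild-type intensity for the 30 genes above the floor in at least 1 pool; filled circles are the brightest probe set, triangles a brightest probe set with 1 pool at the floor, open circles other probe sets above the floor, and the grey band the middle 95% of all measured genes (−0.61 to 0.70). The 6 GTPases and Zbp1 lie above the band, and the type I set lies within it.

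The type I set, mostly effectors that act on viral RNA or block viral replication, differed by less than 2-fold between the pools wherever it could be read. Of its 12 genes 11 had their own probe set and 8 exceeded the floor in at least 1 pool. None of the 8 was called higher or lower. Since only 0.767% of all measured genes were called higher and 0.611% lower, that count says little by itself. Their log2 ratios ran from 0.04 to 0.54, and the median was 0.28. All 8 ratios were positive, but 4 were no larger than the SD of 0.28 between probe sets of the same gene.

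The products of Oas genes sense double-stranded RNA and trigger its decay or act as related antiviral proteins. Outside this set, Oas1b, Oas1c, Oas2 and Oas3 were below the floor in both pools. Within it, Oas1a, Oasl1 and Oasl2 were read well above the floor in both pools. Oas1a had 315 in wild type and 422 in the transgenic pool, a log2 ratio of 0.42. Oasl2 had 48.5 and 69.2 (log2 ratio 0.51), and Oasl1 had 49.1 and 60.9 (log2 ratio 0.31). All 3 were thus higher in the transgenic pool by less than 2-fold. Rsad2, which encodes the antiviral enzyme viperin, had 39.1 and 56.7, a log2 ratio of 0.54 and the highest of the set; its other 2 probe sets lay below the floor in both pools. Isg20, an exonuclease gene, had 67.1 and 80.2, a log2 ratio of 0.26.

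The Ifit genes, whose products bind foreign RNA ends, lay near the floor, where MAS5 values are least reliable. Ifit2 had 24.2 in wild type and 27.8 in the transgenic pool, and Ifit3 had 21.8 and 22.4. Ifit1 read 18.6, under the floor, and 21.0, so that its log2 ratio of 0.09 is a lower bound. The antiviral GTPase genes Mx1 (7.06 and 6.76) and Mx2 (5.03 and 3.15) and the gene for the ISG15-removing protease Usp18 (19.2 and 17.8) lay below the floor in both pools, and no ratio is given. Isg15, the ubiquitin-like modifier gene, was read only by a probe set annotated to Isg15 and Gm9706 together, at 35.3 in wild type and 35.2 in the transgenic pool.

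Among the 6 GTPases and the 8 genes of the type I set with a ratio, the ranges of the 2 groups did not overlap. The lowest GTPase, Irgm1 at 0.74, lay above the highest gene of the type I set, Rsad2 at 0.54, although this pair differed by less than the SD between probe sets of a gene. With 1 pool per genotype the difference between the groups has no test, since genes are not replicates. Under 7 of the 8 alternatives the ranges also stayed apart. With the floor at the 60th percentile the ranges could not be compared, since genes of both groups had only lower bounds. Among them was Gbp3, at 0.39 or more beside a ratio of 0.42 for Oas1a. The separation covers only these listed genes. Of further GTPases, Gbp7 at 0.33 lay within the type I range and Irgm2 at 1.10 within the GTPase range. The highest of 23 further interferon-stimulated genes, Ifitm1 at 0.83, exceeded Irgm1, and their median was 0.24.

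**Figure D3:**
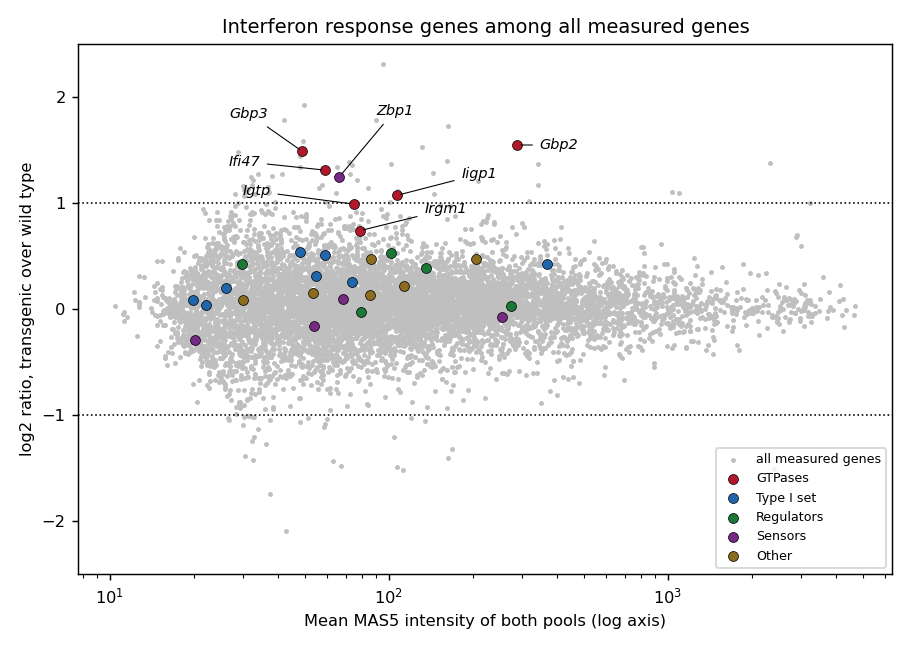
Log2 ratio of transgenic over wild-type intensity against the mean intensity of both pools (log axis) for all 8346 measured genes (grey) and the interferon response genes (coloured by group); dotted lines mark 2-fold, and 27 genes, none of them an interferon response gene, lie outside the axis limits of 2.5. The GTPases lie at the upper edge of the cloud. Their intensity range overlaps that of the type I set only in part. The Ifit genes and Rsad2 lie to the left of every GTPase, and Oas1a lies to the right.

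The transcription factors that carry the response were within 2-fold in both pools. Irf7, the amplifier of type I interferon production, had 83.2 in wild type and 120 in the transgenic pool, a log2 ratio of 0.52. Stat2, a subunit of the complex that type I interferon activates, had 25.4 and 34.1 (log2 ratio 0.42) on the only one of its 2 probe sets above the floor. Irf9, the DNA-binding part of that complex, had 80.4 and 78.7 (log2 ratio −0.03). Irf1, an early target of interferon-γ that in turn activates Gbp genes, had 272 and 277, a log2 ratio of 0.03 that turned negative under quantile normalization and loess. So among these 4 genes Irf7 and Stat2 had ratios above the yardstick SD, and Irf1 and Irf9 were nearly level.

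Irf8, a factor of the B cell and myeloid lineages, had 118 and 155 on its brighter probe set (log2 ratio 0.39), but its other probe set read 82.0 and 66.2 (log2 ratio −0.31). The probe sets thus pointed in opposite directions, and no direction is given for Irf8. The regulators' median log2 ratio of 0.39 is the value of Irf8 itself and so rests on that probe set. Under the mean of its probe sets Irf8 had 0.04. By the brightest probe set 4 of 5 regulators were positive, Irf8 and the nearly level Irf1 among them, against 56% of all measured genes.

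Among the nucleic acid sensors, Zbp1 stood apart from the rest. ZBP1 binds left-handed nucleic acid and starts inflammatory cell death. Its brighter probe set (1429947_a_at) read 39.4 in wild type and 93.7 in the transgenic pool, 2.38-fold higher, and the other (1419604_at) read 12.6, under the floor, and 28.9, a log2 ratio of at least 0.55. The call for Zbp1 was lost with the mean of both probe sets (0.90, with the second at its bound), with the floor at the 60th percentile (at least 0.77) and when probe sets able to bind several transcripts were left out (at least 0.55).

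The receptors of viral RNA were not called higher. Ifih1 (MDA5) had 260 and 248, a log2 ratio of −0.07, and Dhx58 (LGP2) had 24.3 and, under the floor, 16.3, at least 1.23-fold lower; its other 2 probe sets were below the floor in both pools. Adar, the RNA-editing deaminase gene, had 66.2 and 70.8 (log2 ratio 0.10). The kinase gene Eif2ak2 (PKR) had 57.0 and 51.1 on the brighter probe set (log2 ratio −0.16) and 33.3 and 39.2 on the other (0.23), so its direction is open to the choice of probe set. Apart from Zbp1 and from Dhx58, whose log2 ratio of −0.29 is an upper bound and was −0.58 with the floor at the 20th percentile, the sensors lay between −0.16 and 0.10. The group's median was −0.07 over 5 genes. Ddx58 had no probe set of its own in the annotation table, nor had Ifi44 and Xaf1 of the next group.

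The remaining interferon-stimulated genes were all within 2-fold by their brightest probe sets, with a median log2 ratio of 0.19 over 6 genes. Rtp4, a chaperone-like gene strongly induced by type I interferon, had 72.5 and 100 (log2 ratio 0.47). Parp14, an ADP-ribosyltransferase gene, had 105 and 122 (0.22), Ifi35 had 81.5 and 89.6 (0.14), and Bst2, which encodes the virus-tethering protein tetherin, had 29.1 and 30.9 (0.09). Trim21, the cytosolic antibody receptor gene, had 50.5 and 56.1 on the brighter probe set (0.15) and 45.2 and 35.2 on the other (−0.36). Parp14, Ifi35 and Bst2 were level to within the yardstick SD, and Trim21 gave opposite signs.

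Samhd1, which encodes a nucleotide-degrading restriction factor, was the gene on which probe sets disagreed most. Its brightest probe set (1418131_at) read 172 in wild type and 239 in the transgenic pool, a log2 ratio of 0.48, and another (1434438_at) read 55.7 and 95.9 (0.79). A further one (1420272_at) read 86.0 and 33.5, 2.57-fold lower (−1.36), and the last (1420273_x_at) was level at 61.5 and 59.4 (−0.05). The mean of all 4 was −0.04, so no direction is given for Samhd1. Several probe sets exceeded the floor for 7 genes. Of these, Irf8, Eif2ak2, Trim21 and Samhd1 had probe sets of opposite sign, and Gbp2, Iigp1 and Zbp1 did not.

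Promoter sequences were set beside these values because the GTPases and the type I set are known to be driven through ISRE and GAS elements. RefSeq promoters (GRCm38.p6, 250 bases before to 50 after a transcript start) were matched by symbol for 30 of the 38 genes, with 39 starts. Both strands were searched for the core of an ISRE, written here as GAAA, any 2 bases and GAAA again, and for the GAS palindrome, written as TTC, any 3 bases and GAA. The ISRE letters occurred in 3.44% of all 32851 promoters and the GAS letters in 8.30%. Counted by gene, with a match near at least 1 start, the shares were 3.99% and 9.55% of all 27025 genes. Among the genes studied 16 of 30 had an ISRE match and 12 of 30 a GAS match by the same count. An ISRE match was found for 5 of 6 GTPase genes with a searched promoter and 5 of 9 genes of the type I set. A GAS match was found for 2 of 6 and 3 of 9. These sets are not those with a ratio: Tgtp1 and Isg15 are counted here but had no probe set of their own. Iigp1 was left out with its chromosome, and Mx1, Mx2 and Usp18 had no promoter entry. Ifi47, Oasl1 and Oasl2 had neither in this window, which says only that these letters are not in it.

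The 150 bases before the start are shown for the 4 GTPase genes that have both a ratio and an ISRE match, and beside them for 2 genes of the type I set with the same letters. Of these 6 genes Gbp2 and Gbp3 were called higher, and Igtp, Irgm1, Ifit1 and Oas1a were not. Capitals mark every base within an ISRE or GAS match, and neighbouring ISRE matches overlap in Gbp3, Irgm1 and Oas1a. The stretches are Gbp2 at chr3:142620513-142620662 (plus strand), Gbp3 at chr3:142559894-142560043 (plus), Igtp at chr11:58199406-58199555 (plus), Irgm1 at chr11:48871421-48871570 (minus), Ifit1 at chr19:34640739-34640888 (plus) and Oas1a at chr5:120907526-120907675 (minus), all GRCm38.p6.
Gbp2: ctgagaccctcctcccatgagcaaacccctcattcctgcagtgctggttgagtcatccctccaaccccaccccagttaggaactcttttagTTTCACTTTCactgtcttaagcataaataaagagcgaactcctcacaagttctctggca
Gbp3: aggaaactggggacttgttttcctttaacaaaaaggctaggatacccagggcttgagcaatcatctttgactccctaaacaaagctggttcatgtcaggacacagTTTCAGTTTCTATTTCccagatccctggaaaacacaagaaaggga
Igtp: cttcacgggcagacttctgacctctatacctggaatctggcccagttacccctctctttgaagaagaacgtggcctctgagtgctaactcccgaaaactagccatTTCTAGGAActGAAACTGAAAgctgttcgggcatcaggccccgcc
Irgm1: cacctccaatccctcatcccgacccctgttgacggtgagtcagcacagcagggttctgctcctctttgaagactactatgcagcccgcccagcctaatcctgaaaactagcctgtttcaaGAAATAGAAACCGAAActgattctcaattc
Ifit1: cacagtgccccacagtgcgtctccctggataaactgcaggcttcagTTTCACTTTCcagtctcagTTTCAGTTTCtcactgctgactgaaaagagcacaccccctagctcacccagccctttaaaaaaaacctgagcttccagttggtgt
Oas1a: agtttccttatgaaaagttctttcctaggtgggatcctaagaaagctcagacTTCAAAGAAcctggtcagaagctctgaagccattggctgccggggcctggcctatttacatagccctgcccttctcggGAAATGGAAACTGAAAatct
In Gbp2 the ISRE match lies 59 to 50 bases before the start, and in Igtp a GAS match (45 to 37 bases before) is followed by an ISRE match (34 to 25 bases before). Ifit1 carries ISRE matches at 104 to 95 and 85 to 76 bases before its start and was near the floor in both pools. A match to these letters is not evidence that a factor binds there.

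**Figure D4:**
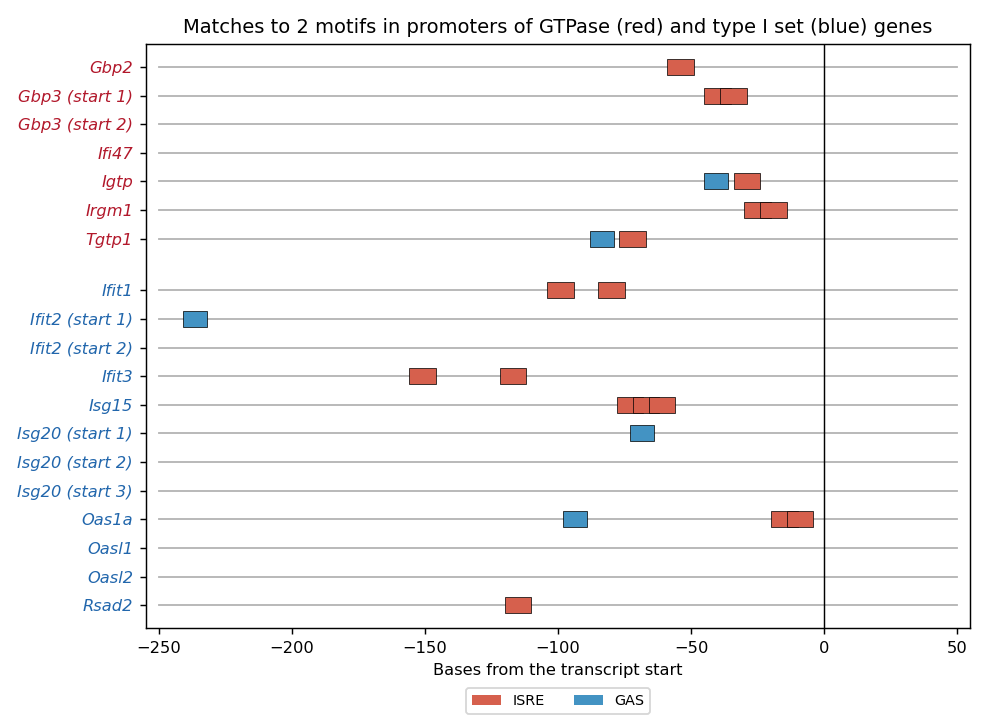
Positions of matches to the ISRE letters (red boxes) and the GAS letters (blue boxes), in bases from the transcript start, in each RefSeq promoter of the GTPase and type I set genes; genes with several starts have a line for each. ISRE matches lie before the start in 5 of 6 GTPase genes (Tgtp1 included, Iigp1 left out) and 5 of 9 type I set genes.

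Several GTPase genes sit side by side, so their neighbours were looked at, a choice made after the values were seen. Gbp2 and Gbp3 are on chromosome 3, and Irgm1, Tgtp1, Ifi47 and Igtp on chromosome 11, per the RefSeq gene table. Within 500 kb of these genes 17 other genes outside the GTPase families were measured, and 0 of them were called higher or lower. Since only 0.767% of all measured genes were called higher and 0.611% lower, a count of 0 among 17 says little. Their log2 ratios ran from −0.60 (Zfp62, near Irgm1) to 0.76 (2210407C18Rik, near Igtp) with a median of 0.03. The ratio of 2210407C18Rik exceeded that of Irgm1 (0.74) and the upper end of the middle 95% of genes (0.70). Also near Igtp, 1810065E05Rik had 0.66. Around Gbp2 and Gbp3 the 3 measured neighbours lay between −0.17 and 0.03.

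Upstream of these targets, no interferon transcript was measurable. Of the 10 interferon genes with a probe set of their own 0 exceeded the floor in either pool, among them Ifng (4.97 in wild type and 0.669 in the transgenic pool) and Ifnb1 (5.38 and 0.248); a level under the floor does not show that a transcript is absent. The receptor chains were measured well and were near level. Ifngr1 had 446 and 394 (log2 ratio −0.18), Ifngr2 249 and 285 (0.20), Ifnar1 48.5 and 53.0 (0.13), Ifnar2 67.1 and 67.3 (0.00), and Il10rb, a chain shared with the interferon-λ receptor, 289 and 304 (0.07). The kinase genes Jak1 (0.11), Jak2 (0.25) and Tyk2 (0.16) also had ratios under the yardstick SD. Other probe sets of Jak1 ran from −0.03 to 0.45, and that of Jak2 read −0.10. None of these 8 receptor and kinase genes was called higher or lower, beside 0.767% called higher and 0.611% lower over all measured genes.

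Genes known as interferon-γ targets outside the GTPases, where measured, were all positive by their brightest probe sets, against 56% of all measured genes. Their log2 ratios ranged from 0.18 to 1.28. Of 10 measured genes on this list 3 were called higher, against 0.767% of all measured genes, and 0 lower. The median log2 ratio was 0.38, midway between H2-D1 and H2-K1, for which no direction is given below. The immunoproteasome subunit genes Psmb9 (83.7 and 204, 2.43-fold) and Psmb8 (126 and 290, 2.30-fold) and the peptide transporter gene Tap1 (19.0, under the floor, and 42.5, at least 2.15-fold) were those called. Tap1 was read by 1 of its 4 probe sets, and the others were below the floor in both pools. Psmb10 (0.47), H2-K1 (0.42), H2-D1 (0.34), Tapbp (0.32) and B2m (0.32) had smaller ratios that exceeded the yardstick SD, and Psme1 (0.27) and Tap2 (0.18) did not exceed it. Other probe sets of H2-K1, whose relatives in the histocompatibility complex are very similar in sequence, ran from −0.46 to 1.43, and those of H2-D1 from −0.14 to 0.32, so no direction is given for H2-K1 and H2-D1. The interferon-γ targets Cxcl9, Cxcl10, Cxcl11, Ido1, Nos2 and Ciita were below the floor in both pools. Psme2 and Nlrc5 had no probe set of their own. So the calls on this list came from antigen-processing genes, and its chemokine genes could not be read.

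In the list of further GTPases, Irgm2 was the 1 of 3 measured genes called higher. Gbp7 had 124 and 157 (log2 ratio 0.33, and 0.14 on its other probe set). Gbp6 went from 11.6, under the floor, to 25.4, a log2 ratio of at least 0.36. Gbp2b (14.6 and 13.8) and Gbp8 (12.4 and 11.2) were below the floor in both pools. Of 23 further interferon-stimulated genes measured, 0 were called higher or lower, 17 were positive and the median was 0.24. Over all measured genes 0.767% were called higher, 0.611% lower and 56% were positive, so the count of 0 says little. The largest ratios in size there were those of Ifitm1 (0.83), Aim2 (at most −0.75, at the floor in the transgenic pool), Trim30a (0.72) and Lgals9 (0.69). Feedback genes (4 measured) and genes that lead to interferon production (8 measured) had medians of 0.22 and −0.07 with none called; the feedback gene Socs3 reached 0.83 on its brightest probe set and 0.25 to 0.34 on its others, while Socs1 was below the floor. Over all 56 measured genes of these pathway lists 4 were called higher, 0 lower, and the median was 0.24.

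Markers of leukocytes in general and of B cells were also higher in the transgenic pool. The 4 pan-leukocyte genes Ptprc, Laptm5, Coro1a and Cd53 were above the floor in both pools, and their summed intensity was 414 in wild type and 832 in the transgenic pool, 2.01 times as high, with log2 ratios from 0.80 to 1.40. Of 7 B cell markers 5 exceeded the floor in both pools, and Blk and Pax5 were below it. Called higher were 4 (Cd79a, Cd22, Pou2af1 and Ms4a1), against 0.767% of all measured genes. The summed intensity of the 7 was 182 and 427. Other probe sets gave less for Laptm5 (0.22) and Cd22 (0.06). The 11 T and NK cell markers were all under the floor in wild type, so their wild-type sum of 94.7 holds no measurable value and gives no ratio to the transgenic sum of 244. In the transgenic pool Gzmb, a granzyme gene, reached 55.2 (at least 2.79-fold higher) and Gzma 37.1 (at least 1.88-fold), while Cd3d (27.3), Cd3g (23.1), Cd3e (20.9), Klrd1 (27.9) and Cd2 (20.4) lay closer to the floor. The defining genes Cd4, Cd8a, Cd247 and Nkg7 stayed below it in both pools. The GTPase log2 ratios ran from 0.74 to 1.55, beside 0.80 to 1.40 for the pan-leukocyte genes. The part of these cells in the GTPase values was not tested.

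Other cell type lists gave other values. The 10 macrophage markers, all above the floor in both pools, summed to 1789 and 2059, 1.15 times as high, with 0 called. Since only 0.767% of all measured genes were called higher and 0.611% lower, that 0 says little. The plasmacytoid dendritic cell, a main source of type I interferon, had 3 markers with a probe set, of which Ly6d (log2 ratio 1.27, a gene also known from B cells) was called higher, Tcf4 had −0.04 and Ccr9 was below the floor. Of 5 dendritic cell markers Itgax was at least 2.13-fold higher, from under the floor, Flt3 went from 23.0 to 11.6, under the floor and at least 1.16-fold lower, and Zbtb46, Xcr1 and Ccr7 were below it in both pools. Plasma cell markers summed to 3915 and 4144, endothelial markers to 203 and 321, and mast cell markers to 184 and 3251. Only 2 of the 7 mast cell markers exceeded the floor in wild type and 6 in the transgenic pool. Part of their wild-type sum is thus not measurable. All 13 colon epithelium markers (summed intensity 20831 and 19912) and all 6 smooth muscle markers (8355 and 8136) exceeded the floor in both pools. This shows colon tissue in both pools but not that a pool held colon alone. Pancreatic acinar genes summed to 24242 in wild type and 1653 in the transgenic pool. The source of this difference and its part in the values above were not tested.

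**Figure D5:**
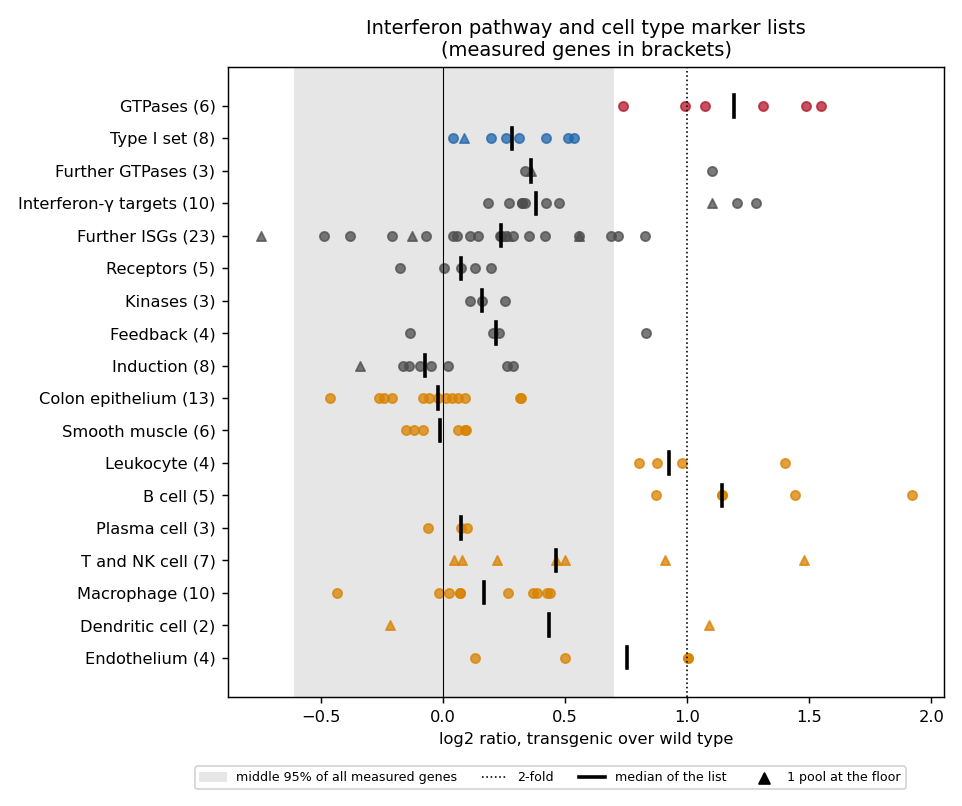
Log2 ratio of transgenic over wild-type intensity for each measured gene of the GTPases (red), the type I set (blue), the further interferon pathway lists (grey) and 9 cell type marker lists (orange); bars are list medians, triangles genes with 1 pool at the floor, and the band the middle 95% of all measured genes. The medians were 1.19 for the GTPases, 0.28 for the type I set, 0.93 for leukocyte, 1.14 for B cell and 0.17 for macrophage markers.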

How the data were processed

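Total RNA of distal colon, pooled from 4 mice per genotype, was hybridised as biotinylated cRNA to 1 Affymetrix array per genotype, per the labels' protocols and the series design. The intensities deposited by the authors are linear MAS5 values, per the submitters' processing notes, with no version in the sources used here. MAS5 subtracts background and mismatch signal, so ratios of low values are unstable. Probe sets (22690, of which 64 controls) were named from the platform annotation, and only the 20380 with exactly 1 symbol were used. The RefSeq gene table (GRCm38.p6) held all 38 symbols.

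With 1 array per genotype no test was possible, and the precision of all values is limited by the number of arrays. Values under the floor were raised to it and the log2 ratio was taken with no further scaling (Python 3.11.15, pandas 2.3.3, statsmodels 0.14.6 for loess). Promoter motifs were searched by exact match. The procedure was tested on simulated arrays with known ratios, set only in genes well above the floor. Recovery was required only for changes larger than those of the interferon response genes, so the simulation does not cover their calls. Alternatives were median scaling, quantile normalization, loess (span 0.3), floors at the 20th and 60th percentiles, no floor with a pseudocount of 0.284, the mean of a gene's probe sets, and leaving out probe sets named _s_at, _x_at, _a_at or _f_at. The genes, lists, and tests were chosen with earlier results of these data known. All listed genes with their own probe set were named, as were interferon receptors and kinases above the floor and, in each other list, up to 4 measured genes with the largest ratios in size. Genes below the floor, second probe sets, neighbouring genes, interferon-γ targets past the first 4 and most markers were named after their values were seen.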

Additional observations from a re-analysis of the deposited data

How the results depend on the processing

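The counts, medians and single ratios of the interferon response genes, and the count of all genes called higher, were recomputed under 8 alternatives, 1 choice at a time; the other pathway genes, cell markers, neighbours and promoter matches were not. The count of genes called higher stayed at 5, with the same 5 genes, under median scaling, quantile normalization, loess, the floor at the 20th percentile and no floor. It was 2 with the floor at the 60th percentile, which lost Gbp3, Ifi47 and Zbp1, 4 with the mean of probe sets, which lost Zbp1, and 3 when probe sets able to bind several transcripts were left out, which lost Gbp3 and Zbp1. The count of genes called lower was 0 throughout. The GTPase median was 0.80 with the floor at the 60th percentile, where Gbp3, Ifi47 and Igtp had only lower bounds, and otherwise at most 1.21, and the type I set median ran from 0.20 to 0.28. Over all genes, 202 were called higher with the floor at the 20th percentile, 29 at the 60th and 746 with no floor, so the background share moves strongly with the floor; with no floor 0 of the 6 GTPases exceeded the upper end of the middle 95% of genes, and with either other floor 5 did, bounds included. No scaling moved the median of all genes by more than 0.1. Of 227 recomputed ratios of single genes, 218 moved by less than the SD between probe sets of a gene and 9 by more. No paired analysis was possible because each genotype has only 1 array.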
